A study of Homo sapiens with 12 samples.

Results

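Chromosome 19 carries the densest set of zinc finger genes in the human genome, and their RNA levels were examined in 2 diffuse large B-cell lymphoma (DLBCL) lines before and after acquired resistance to venetoclax, an inhibitor of the anti-apoptotic protein BCL2. The rule that sets the members uses name and place, and takes the protein-coding genes on chromosome 19 (GRCh38, GENCODE release 44) whose symbol is ZNF followed only by digits, but the family was picked for description with earlier results of these data known. There were 240 of them among the 60675 gene identifiers in each count file, and all 240 were listed in every library. By start position, 36 lay in the cluster between 19 and 24 Mb on the short arm, and 204 lay elsewhere on the chromosome.

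SUDHL6 and SUDHL16 are human DLBCL cell lines, and each was compared with a venetoclax-resistant line derived from it by long culture in rising doses of the drug. Parental and resistant cells of each line had 3 libraries per group, 12 in total, which are named here by their titles: CE-7 to CE-9 (SUDHL6 parental), CE-10 to CE-12 (SUDHL6 resistant), CE-25 to CE-27 (SUDHL16 parental) and CE-28 to CE-30 (SUDHL16 resistant). The labels do not say whether the libraries of a group came from separate cultures, so p-values measure the spread between these libraries, which may be technical. The NEBNext Ultra II kit served for SUDHL6 and Illumina's Stranded Total RNA Prep, with ribosomal RNA removed by RiboZero Plus, for SUDHL16, and the sequencers also differed, so line, kit and sequencer cannot be told apart. The sources used here describe 1 resistant line for each parent, and effects of the drug cannot be told apart from other changes during that culture.

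Zinc finger proteins of this family bind DNA through an array of C2H2 fingers, each of which reads a few bases. Many also carry a KRAB domain, which binds TRIM28 (KAP1) and through it the histone H3 lysine 9 methyltransferase SETDB1 and the HP1 proteins, and so silences the bound locus. Their best known targets are transposable elements, for example SVA elements for ZNF91 and LINE-1 elements for ZNF93. The genes arose largely by tandem duplication, so neighbours resemble each other in sequence.

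The 240 genes coded for 1 to 36 fingers by a search of the annotated coding sequence, with a median of 12 and the highest number in ZNF208. A short KRAB motif (phenylalanine, any 2 residues, then glutamate, glutamate and tryptophan) was found in 167 of 240 genes, and in 32 of the 36 genes of the 19 to 24 Mb cluster. The motif is narrow, and its absence does not show that a protein lacks the domain. Another annotated gene overlapped 180 of the 240, and whether counting used strand is not given in the sources used here, so reads of overlapping genes may be mixed. The median gene of the cluster shared 6.87% of its 50-base stretches with other transcripts, against 2.24% for the genes elsewhere, and reads in such stretches may be split between copies.

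To show the sequence context of the changes described here, promoters are given for the 3 genes that changed in both lines, ZNF682, ZNF486 and ZNF43, all in the 19 to 24 Mb cluster, and for ZNF606, on the long arm, which had the largest fitted decrease in SUDHL16. Each is the 250 bases before a RefSeq transcription start (GRCh38.p14), read 5′ to 3′ on the gene's strand, with CG dinucleotides, the sites of DNA methylation, in capitals. ZNF682 (minus strand) is at chr19:20039506-20039755, ZNF486 (plus strand) at chr19:20166964-20167213, ZNF43 (minus strand) at chr19:21836183-21836432 and ZNF606 (minus strand) at chr19:58002821-58003070.
ZNF682: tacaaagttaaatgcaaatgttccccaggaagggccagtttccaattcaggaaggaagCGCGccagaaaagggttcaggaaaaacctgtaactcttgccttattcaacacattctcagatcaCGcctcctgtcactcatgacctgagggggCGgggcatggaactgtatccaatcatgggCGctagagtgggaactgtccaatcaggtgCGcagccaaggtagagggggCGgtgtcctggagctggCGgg
ZNF486: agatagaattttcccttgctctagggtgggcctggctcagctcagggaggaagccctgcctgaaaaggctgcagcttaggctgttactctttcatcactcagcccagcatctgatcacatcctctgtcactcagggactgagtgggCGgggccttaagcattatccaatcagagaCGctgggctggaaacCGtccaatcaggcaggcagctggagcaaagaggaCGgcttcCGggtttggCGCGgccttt
ZNF43: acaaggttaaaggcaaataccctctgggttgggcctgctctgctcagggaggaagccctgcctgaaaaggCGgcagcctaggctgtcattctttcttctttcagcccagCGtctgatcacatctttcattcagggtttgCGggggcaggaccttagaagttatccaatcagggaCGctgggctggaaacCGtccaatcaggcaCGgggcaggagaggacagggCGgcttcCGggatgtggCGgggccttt
ZNF606: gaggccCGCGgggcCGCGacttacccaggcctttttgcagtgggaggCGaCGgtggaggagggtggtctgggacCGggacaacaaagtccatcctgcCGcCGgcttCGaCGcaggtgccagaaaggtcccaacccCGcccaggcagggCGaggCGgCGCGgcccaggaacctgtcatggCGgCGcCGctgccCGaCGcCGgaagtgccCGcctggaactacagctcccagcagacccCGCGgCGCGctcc
The starts of ZNF682 and ZNF486 coincide with the 5′ ends of the annotated genes, that of ZNF606 lies 529 bases inside its gene, and that of ZNF43 lies 15943 bases inside.

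The promoters of the 3 cluster genes held 8, 7 and 9 CG dinucleotides in the order listed, and that of ZNF606 held 27. The cluster and the rest of the family differed in this respect. Over the 300 bases that RefSeq promoters cover here (250 before and 50 after the start), the median promoter of the cluster had 10 CG dinucleotides (28 genes with a listed promoter, 8 to 18), the median elsewhere on the chromosome was 22 (182 genes, 2 to 49), the median protein-coding gene had 22, and the median of all 35116 promoters listed, which include further starts and noncoding genes, was 14 (quartiles 4 and 28). A CCAAT box, the letters CCAAT on either strand, occurred in the 250 bases of 96.6% of the 29 promoters listed for cluster genes, of 40.5% of the 232 listed for the genes elsewhere, and of 32% of all 35116 promoters. At least 2 copies were present in 69% of the cluster promoters and in 9.53% of all promoters. In the sequences shown there were 3 copies in ZNF682, 2 in ZNF486, 2 in ZNF43 and 0 in ZNF606. The motif was chosen after the sequences had been seen, and no binding or methylation was measured in these samples.

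SUDHL6 libraries had total counts between 33992784 and 40885665. SUDHL16 libraries had between 14335460 and 22068221, except for the parental library CE-26 with 4131927. In CE-26, 31.9% of counts were on identifiers outside GENCODE release 44 and 55.4% on protein-coding genes, against at most 5.06% and at least 84.3% in the other 11 libraries. All 10 B cell markers exceeded 1 CPM, on the counts-per-million scale, in every library. The summed level of these markers was 2981 CPM in CE-26 and 4338 to 4913 CPM elsewhere. Each list of 10 markers of other cell types summed to at most 3.99 CPM in any SUDHL6 library. In SUDHL16 parental against resistant libraries, T and NK cell markers summed to 2.15 to 25.8 against 11.9 to 14 CPM, myeloid markers to 0 to 22 against 0.988 to 2.08 CPM, stromal and epithelial markers to 35 to 67.8 against 0.425 to 0.737 CPM, and erythroid and platelet markers to 151 to 1383 against 5.6 to 136 CPM. CE-26 had 6, 6, 9 and 6 of the 10 markers of these lists over 1 CPM. The 2 stromal and epithelial markers that were tested in SUDHL16 were both lowered, with and without CE-26, and 1 T and NK cell marker was raised, with 1 more lowered without CE-26. In such bulk samples, fewer cells with a transcript and less of it per cell cannot be told apart. The part of these differences in the results was not tested, and the SUDHL16 fits were made with and without CE-26.

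Most of the 240 genes were expressed at low levels in all 4 groups. On the transcripts-per-million (TPM) scale, which corrects for gene length, the median level was 4.59 TPM in SUDHL6 parental, 4.68 TPM in SUDHL6 resistant, 4.59 TPM in SUDHL16 parental and 2.68 TPM in SUDHL16 resistant cells. At least 1 TPM was reached by 173, 177, 181 and 157 genes, respectively. For the cluster alone the medians were 7.70, 6.97, 5.36 and 2.80 TPM. Over CE-25 and CE-27 alone, the SUDHL16 parental medians were 5.34 TPM for all members and 5.37 TPM for the cluster, with 178 genes at 1 TPM or more. The highest level in SUDHL6 was that of ZNF146, a short finger protein without a KRAB domain, at 114 ± 4.72 TPM in parental and 109 ± 2.29 TPM in resistant cells (SD, n = 3). In SUDHL16 parental cells ZNF587 led at 67.1 ± 21.3 TPM with all libraries and ZNF460 at 78.3 TPM over CE-25 and CE-27, and in resistant cells ZNF460 at 69.3 ± 26.5 TPM (SD, n = 3). ZNF460 was among the weak members in SUDHL6, at 2.08 ± 0.541 and 2.51 ± 0.531 TPM (SD, n = 3). ZNF581 was among the 3 highest in all 4 groups, and ZNF714, a gene of the cluster, was among the 3 highest in SUDHL16 resistant cells at 44.8 ± 19.4 TPM (SD, n = 3).

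The zinc finger genes took up a smaller share of the RNA in SUDHL16 resistant cells than in their parental cells, and a nearly constant share in SUDHL6. Of all protein-coding counts, they made up 0.303% to 0.306% in SUDHL6 parental and 0.313% to 0.321% in SUDHL6 resistant libraries. In SUDHL16 they made up 0.481% in CE-25, 1.19% in CE-26 and 0.478% in CE-27, against 0.403% in CE-28, 0.337% in CE-29 and 0.333% in CE-30. The parental and resistant libraries did not overlap in either line, with opposite directions. At least 1 count was found for 227 of the 240 genes in CE-26 and for 178 to 206 in the other SUDHL16 libraries.

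**Figure D1:**
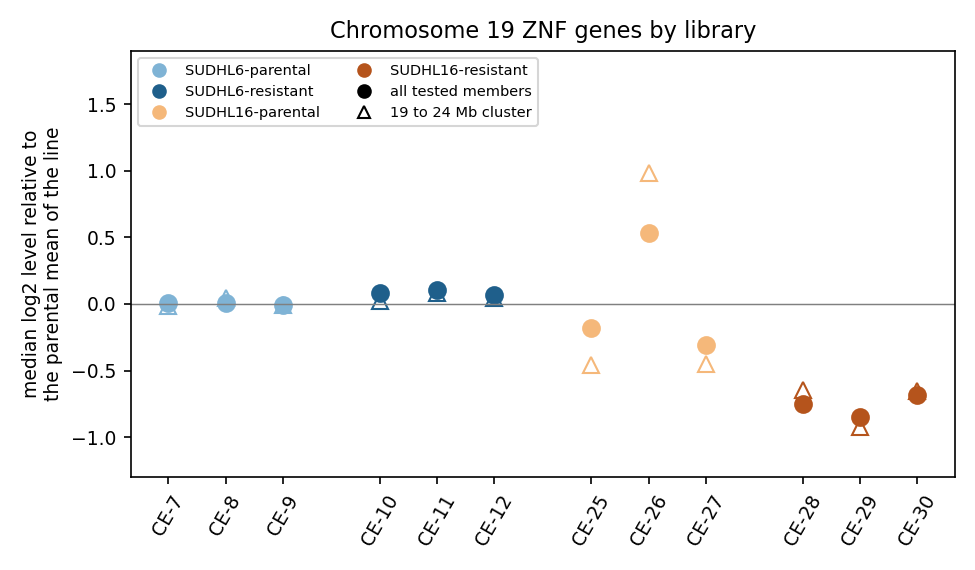
Median level of the chromosome 19 zinc finger genes in each of the 12 libraries, as log2 of CPM plus 0.5 relative to the parental mean of the same line, over the tested genes of the line (filled circles) and over those of the 19 to 24 Mb cluster (open triangles). The SUDHL16 resistant libraries lie at -0.75, -0.85 and -0.68, below CE-25 at -0.18 and CE-27 at -0.31, while CE-26 stands apart at 0.53 and, for the cluster, at 0.98.

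In SUDHL6 the zinc finger genes changed little, with calls in both directions and a small tilt upward. Of 190 genes that passed the filter on low counts, 9 were raised and 8 were lowered in resistant cells, where a gene was called at a Benjamini-Hochberg adjusted p under 0.05 in edgeR's quasi-likelihood test and a change of at least 1.5-fold. Of all 16662 genes tested in this line, 4.31% were raised and 4.65% lowered, so the members' shares were near the background. The remaining 50 members were too low to test, and 18 of them had no count in any SUDHL6 library. The median log2 fold change was 0.11 for the members and 0.05 for the other protein-coding genes of chromosome 19. It was 0.00 for the zinc finger genes of other chromosomes with the same naming. Among these, those with the KRAB motif had a median of 0.13, with 38 of 52 positive, and those without it -0.02. An upward tilt was thus also seen outside chromosome 19. The fitted change was positive for 125 of 190 members, against 8330 of all 16662 genes tested. At an unadjusted edgeR p under 0.05, 59 members were up and 22 down, against 3636 and 3887 of all genes tested. Resistant libraries lay wholly above parental ones for 64 of the 190 members and wholly below for 24, with 23.1% and 24.8% of all tested genes in these classes.

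The raised genes in SUDHL6 were ZNF547, ZNF43, ZNF329, ZNF134, ZNF888, ZNF773, ZNF416, ZNF792 and ZNF570. ZNF134 had 3.67, 2.80 and 3.0 CPM in the parental and 8.0, 6.78 and 7.21 CPM in the resistant libraries, a log2 fold change of 1.22 ± 0.13 (SE, edgeR adjusted p = 8.29e-06). ZNF329 had 1.79, 1.36 and 0.98 CPM against 3.68, 2.95 and 3.0 CPM, a log2 fold change of 1.23 ± 0.21 (SE, edgeR adjusted p = 0.00046). ZNF547 had the largest fitted increase at 1.97 ± 0.48 (SE, edgeR adjusted p = 0.0059), but its levels were low, at 0.97, 0.15 and 0.17 CPM against 1.81, 1.56 and 1.60 CPM. The parental and resistant values of these 3 genes did not overlap. The other raised genes outside the cluster had log2 fold changes between 0.59 (ZNF570) and 0.77 (ZNF888). ZNF547, ZNF134, ZNF773, ZNF416 and ZNF329 all lie beyond 55 Mb, near the end of the long arm. There 5 of 46 tested members (10.9%) were raised and 1 was lowered. Among the other protein-coding genes of that part, 3 of 40 tested (7.5%) were raised and 2 were lowered.

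The lowered genes in SUDHL6 were ZNF682, ZNF486, ZNF358, ZNF426, ZNF284, ZNF738, ZNF549 and ZNF726. ZNF426 on the short arm had 4.61, 5.4 and 5.31 CPM in the parental and 2.76, 2.35 and 2.29 CPM in the resistant libraries, a log2 fold change of -1.05 ± 0.13 (SE, edgeR adjusted p = 4.57e-05). ZNF358 had 4.67, 5.4 and 5.21 CPM against 2.34, 2.50 and 2.45 CPM, a log2 fold change of -1.07 ± 0.12 (SE, edgeR adjusted p = 2.17e-05). Both genes stood at about the same parental level and fell in every resistant library. ZNF358, ZNF284 and ZNF738 shared more than 20% of their 50-base stretches with other transcripts (25.1%, 44% and 28.6%), so their counts are less certain.

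In the 19 to 24 Mb cluster, 26 of 36 genes were tested in SUDHL6, of which 1 was raised (ZNF43) and 4 were lowered (ZNF682, ZNF486, ZNF738 and ZNF726). Of the 164 tested genes elsewhere on the chromosome, 8 were raised and 4 were lowered. The median log2 fold change was 0.06 in the cluster and 0.12 elsewhere. A test of the cluster against the rest was not made, since it would be a test over a chosen list.

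In SUDHL16 the direction was one-sided: 0 of 185 tested members were raised and 25 were lowered in resistant cells. Of all 15708 genes tested in this line, 3.2% were raised and 2.1% lowered (edgeR, adjusted p under 0.05 and at least 1.5-fold). At an unadjusted edgeR p under 0.05 there were 1 member up and 81 down, against 1608 and 1394 of all genes tested. DESeq2 also called 0 members raised, and limma voom called 3, against 935 and 1677 of all genes tested. Without CE-26, 1 of 186 tested members was raised and 36 were lowered, against 6.73% raised and 3.32% lowered among all 16280 genes tested, and the lowered genes included all 25 found with CE-26. Of the 240 members, 55 were too low to test with all libraries, and 5 had no count in any SUDHL16 library. Resistant libraries lay wholly below all 3 parental ones for 80 of the 185 members and wholly above for 1, against 11.9% and 14.6% of all genes tested. All 25 lowered genes were among the 80.

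The shift was seen in the median as well. The median log2 fold change of the members was -0.88 with all libraries and -0.40 without CE-26, while that of all genes tested was -0.02 and 0.05. With limma voom the members' median was -0.48, and without a filter on low counts it was -1.06 against -1.18 for all genes, so that the members then lay slightly above them. Counting the 6 tested members that were at 0 in every resistant library at their lower bound of change left both medians the same. This could not have come out otherwise, since those bounds also lie far below the medians. The other protein-coding genes of chromosome 19 had medians of 0.03 and 0.09, and of these 24 of 704 were raised and 11 lowered with all libraries. The 14 tested genes of chromosome 19 with other zinc finger symbols (ZNF names that include letters, ZFP, ZSCAN and the like), which are no members, had 0 raised and 3 lowered (21.4%), medians of -0.30 and -0.12, and 12 negative with all libraries and 11 without CE-26. Zinc finger genes of other chromosomes had medians of 0.03 and 0.03, with 6 of 193 raised and 6 lowered. Those of them that carry the KRAB motif had medians of -0.10 and -0.03, with 0 of 54 raised and 4 lowered with all libraries. These gene sets are described by their counts and medians, and the difference between them was not tested.

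**Figure D2:**
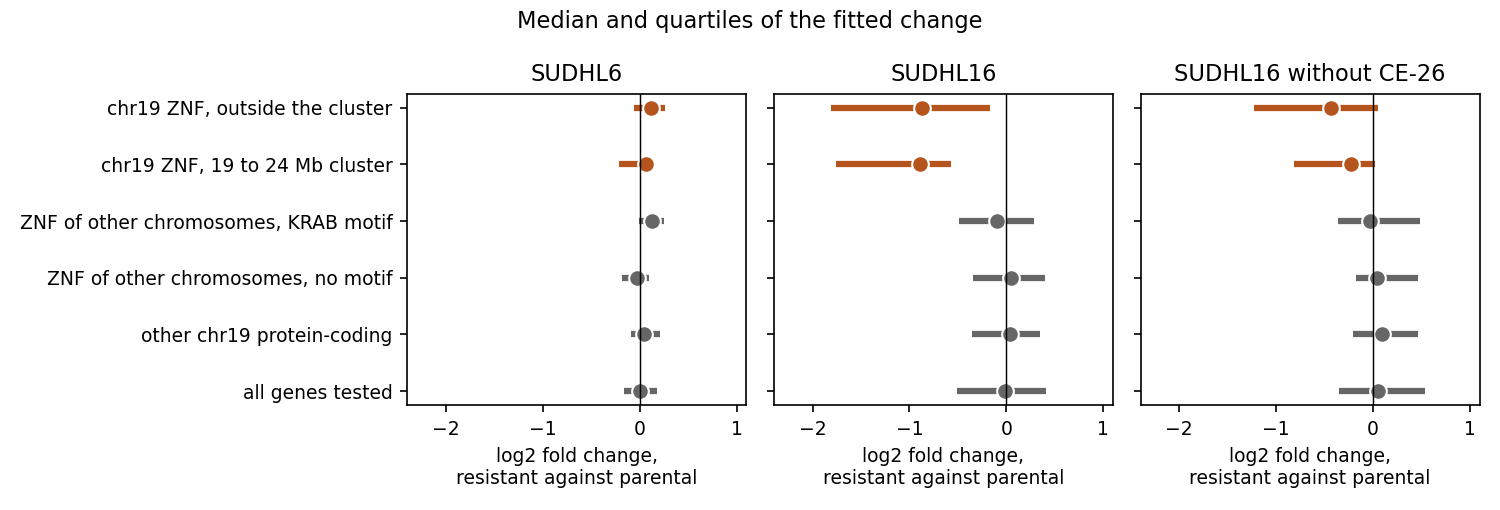
Median (circle) and quartiles (bar) of the fitted log2 fold change, resistant against parental, for 6 sets of genes in SUDHL6, in SUDHL16 and in SUDHL16 without CE-26. In SUDHL16 the chromosome 19 zinc finger genes outside and inside the cluster have medians of -0.87 and -0.90, or -0.43 and -0.23 without CE-26, and the other sets lie near 0.

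The number of lowered genes depended on the libraries in the resistant group. Leaving out CE-28, CE-29 or CE-30 left 8, 5 or 9 lowered members. Over all genes tested it left 134, 116 or 139 lowered, against 330 with all libraries. Leaving out CE-25 or CE-27 kept 17 of the 25 lowered members in either case. All 25 kept a negative sign whichever library was left out. The biological coefficient of variation was 0.47 in SUDHL16, 0.34 without CE-26, and 0.05 in SUDHL6, so that smaller changes could be called in SUDHL6.

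Lowered genes occurred in most parts of the chromosome. By start position, 6 of 31 tested members were lowered between 8 and 19 Mb, 3 of 24 in the 19 to 24 Mb cluster, 2 of 27 between 24 and 39 Mb, 1 of 18 between 39 and 50 Mb, 6 of 32 between 50 and 55 Mb and 7 of 51 from there to the end. Without CE-26 these were 9 of 32, 5 of 24, 3 of 27, 2 of 18, 8 of 32 and 9 of 51. The cluster and the other 161 tested members had nearly equal medians with all libraries (-0.90 and -0.87) and the cluster had the smaller decrease without CE-26 (-0.23 and -0.43 over 162). In CE-26 the median relative level was 0.98 in the cluster and 0.53 over all tested members, as the plot of medians by library shows. The other 20 tested protein-coding genes between 19 and 24 Mb had a median of 0.06, or -0.01 without CE-26, with 1 raised and 0 lowered in either fit.

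**Figure D3:**
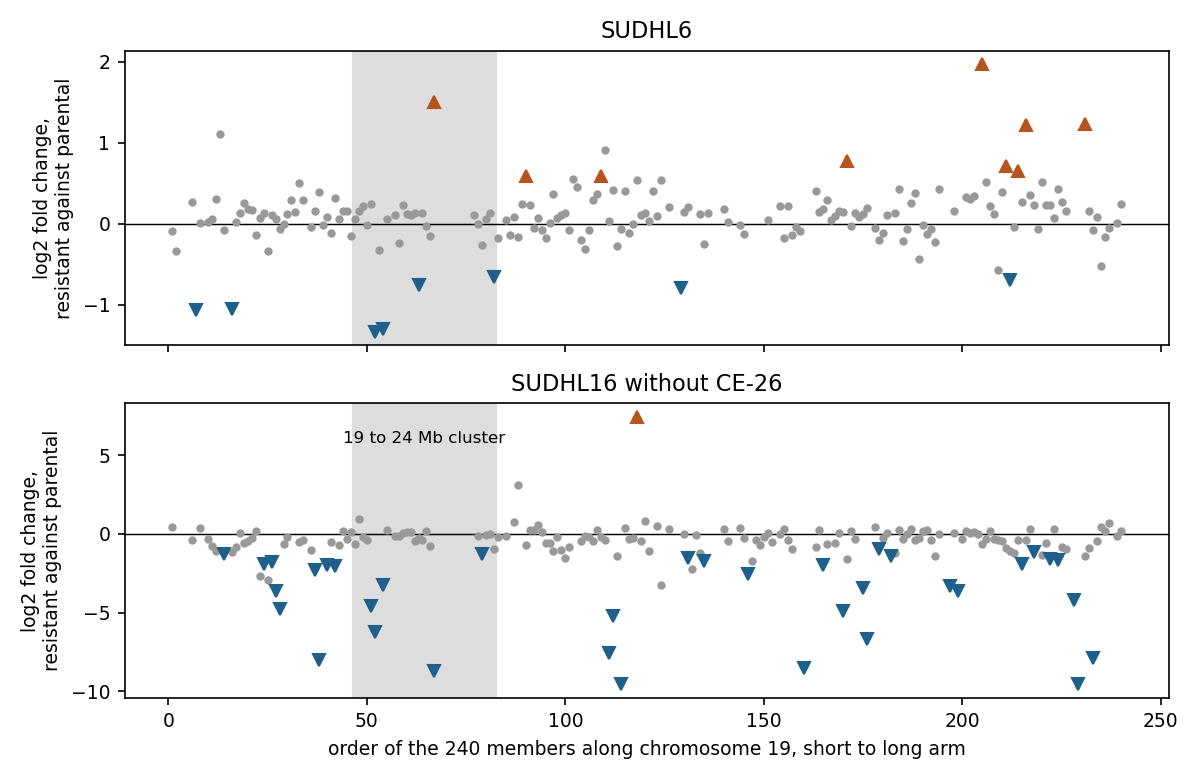
Fitted log2 fold change of each tested member, resistant against parental, in the order of the 240 members along chromosome 19, for SUDHL6 (top) and SUDHL16 without CE-26 (bottom); triangles mark called genes (up or down), grey points those not called, and grey shading the 19 to 24 Mb cluster. SUDHL6 has 9 raised and 8 lowered genes, and SUDHL16 without CE-26 has 1 raised and 36 lowered, spread over both arms.

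The strongest decreases in SUDHL16 ended near 0. Of the 184 members with a parental mean of at least 1 CPM in CE-25 and CE-27, 9 had at most 3 counts in each of the 3 resistant libraries, or 4.89%, against 0.72% of the 10700 protein-coding genes at that level. They were ZNF563 on the short arm, ZNF682 and ZNF43 in the cluster, and ZNF540, ZNF573, ZNF528, ZNF665, ZNF606 and ZNF544 on the long arm, and all 9 were among the 25 lowered genes. With CE-26 in the parental mean the same rule gave 36 members of 219, but also 17.6% of the protein-coding genes, and the other 27 members did not exceed 0.937 CPM in CE-25 or CE-27. In SUDHL6 0 members met the rule and 0 met its reverse (near 0 in parental cells only), against 0.0183% and 0.0091% of protein-coding genes. In SUDHL16 with all libraries 0 met the reverse, against 0.464%.

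ZNF573 (GRCh38 chr19:37735833-37817300, minus strand, 19 fingers) had a steady level in all groups but SUDHL16 resistant cells. It had 4.79, 5.85 and 5.15 CPM in CE-25, CE-26 and CE-27 and 0 counts in every resistant library (edgeR adjusted p = 0.00548, or 0.00227 without CE-26). In SUDHL6 it had 4.99, 4.72 and 4.25 CPM in parental and 4.15, 4.63 and 4.57 CPM in resistant libraries, a log2 fold change of -0.06. The 4 groups thus had similar levels except for SUDHL16 resistant cells, where 3 counts over the group, the limit that a count of 0 allows, put the parental level at least 99-fold higher, taking CE-25 and CE-27 alone.

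ZNF606 (chr19:57977076-58003349, minus strand, 13 fingers), a KRAB zinc finger gene near the end of the long arm, had 7.05, 13.1 and 3.10 CPM in SUDHL16 parental and 0 counts in resistant libraries (edgeR adjusted p = 0.00828, or 0.00356 without CE-26). The parental level was at least 101-fold higher by the same limit. It had 0 counts in all 6 SUDHL6 libraries, so a loss could be seen only in SUDHL16. Among the other genes at 0 in every SUDHL16 resistant library, the parental level without CE-26 was at least 48.2-fold higher for ZNF528, 33.9-fold for ZNF563, 31.6-fold for ZNF544 and 25.6-fold for ZNF540. These bounds and the intervals of counts cover counting error only.

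ZNF544 had a stable level in SUDHL6, with 37.6, 37.9 and 33.4 CPM in parental and 34.8, 35.5 and 33.1 CPM in resistant libraries. In SUDHL16 it was weak already in parental cells, at 1.87 CPM in CE-25, 11.7 CPM in CE-26 and 1.30 CPM in CE-27, and at 0 in the resistant libraries (edgeR adjusted p = 0.0325, or 0.0183 without CE-26). ZNF665 had 134 counts over CE-25 and CE-27 and 2 over the resistant libraries, a ratio of 117 (exact 95% interval 31.7 to 974, edgeR adjusted p = 0.0107, or 0.00414 without CE-26). ZNF540 overlaps its neighbour ZNF571, which lies on the opposite strand. ZNF571 had 2.87, 3.10 and 3.60 CPM in parental and 0.00, 0.00 and 0.21 CPM in resistant libraries, and its edgeR adjusted p was 0.0507 with all libraries and 0.0215 without CE-26. Reads of this pair cannot be assigned with certainty if counting ignored strand.

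Other genes on the long arm were lowered to a level above 0 in most libraries. ZNF347 had 41.1, 95.7 and 40.5 CPM in the parental and 3.15, 3.62 and 4.55 CPM in the resistant libraries, a log2 fold change of -3.95 ± 0.42 (SE, edgeR adjusted p = 0.00176), or -3.42 ± 0.27 without CE-26 (adjusted p = 0.000228). ZNF83 had 35.8, 72.7 and 41.5 CPM against 9.58, 10.3 and 8.80 CPM, a log2 fold change of -2.38 ± 0.32 (SE, edgeR adjusted p = 0.00492), or -2.01 ± 0.24 without CE-26. ZNF320 had 11.8, 23.1 and 10.2 CPM against 0.00, 0.71 and 0.34 CPM, a log2 fold change of -5.33 ± 0.94 (SE, edgeR adjusted p = 0.0158), or -4.88 ± 0.82 without CE-26. In none of the 3 genes did the groups overlap, and the decrease did not rest on CE-26. All 3 lie close together on the long arm, with ZNF665, between the start of ZNF83 and the end of ZNF665 (GRCh38 chr19:52594060-53193386). In SUDHL6 these genes had log2 fold changes of 0.12, 0.18 and 0.15. The bounds of this stretch were set after the values had been seen. ZNF347, ZNF83, ZNF320 and ZNF665 were picked for their decrease, and the share of lowered members within the stretch is not given here. Over the wider part from 50 to 55 Mb, 6 of 32 tested members were lowered with all libraries and 8 of 32 without CE-26, so most tested members there were not called.

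On the short arm, 19 members lie from ZNF441 to ZNF709 (GRCh38 chr19:11767000-12513854), of which 5 of 14 tested were lowered with all libraries and 8 of 15 without CE-26. ZNF439, ZNF69, ZNF44, ZNF563 and ZNF709 were lowered with all libraries, and ZNF441, ZNF440 and ZNF799 only without CE-26. ZNF439 had 16.9, 106 and 27.1 CPM in the parental and 2.81, 1.36 and 1.19 CPM in the resistant libraries, a log2 fold change of -4.79 ± 0.77 (SE, edgeR adjusted p = 0.0107), or -3.62 ± 0.46 without CE-26. ZNF44 had 10.2, 16.9 and 12 CPM against 1.67, 2.26 and 2.76 CPM, a log2 fold change of -2.53 ± 0.44 (SE, edgeR adjusted p = 0.0146), or -2.3 ± 0.39 without CE-26. ZNF709 shared 92.3% of its 50-base stretches with other transcripts and ZNF799 shared 47.7%, so their counts are uncertain. They were the only lowered genes of the 36 with over 20% shared. The stretch was picked out after its values had been seen.

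In the 19 to 24 Mb cluster, ZNF43, ZNF682 and ZNF486 were lowered in SUDHL16 with all libraries, and ZNF93 and ZNF91 without CE-26 only. ZNF91, the repressor of SVA elements, had 66.2, 262 and 71.3 CPM in CE-25, CE-26 and CE-27 and 25.3, 25.4 and 34.0 CPM in the resistant libraries. Its log2 fold change was -2.23 ± 0.54 (SE, edgeR adjusted p = 0.0511) with all libraries and -1.27 ± 0.22 (adjusted p = 0.0095) without CE-26. ZNF93, the repressor of LINE-1 elements, had 8.76, 40.3 and 12.2 CPM against 0.00, 0.00 and 1.19 CPM, with edgeR adjusted p-values of 0.0562 and 0.0478. For both genes every resistant library lay below every parental one. In SUDHL6, ZNF91 had 64.5, 66.8 and 61.2 CPM against 54.5, 52.7 and 53.6 CPM, a log2 fold change of -0.26 that was under the 1.5-fold limit, and ZNF93 had a log2 fold change of 0.24.

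The genes called in both lines were ZNF682, ZNF486 and ZNF43, all with the KRAB motif and all in the cluster. The SUDHL6 calls of all 3 were lost in a single fit of all 12 libraries, which shares 1 estimate of the spread between the lines, with nearly the same log2 fold changes and edgeR adjusted p-values of 1, 0.893 and 0.34. ZNF486 (GRCh38 chr19:20167214-20200488, plus strand, 4 exons and 9 fingers) had 24, 24.9 and 26.3 CPM in SUDHL6 parental and 9.92, 10.8 and 9.91 CPM in SUDHL6 resistant libraries, a log2 fold change of -1.3 ± 0.07 (SE, edgeR adjusted p = 1.36e-08). In SUDHL16 it had 24, 179 and 28.7 CPM against 4.62, 2.35 and 1.49 CPM, a log2 fold change of -4.77 ± 0.89 (SE, edgeR adjusted p = 0.0202), or -3.22 ± 0.47 without CE-26 (adjusted p = 0.0037). The gene was thus lowered in both lines, from similar parental CPM when CE-26 is set aside. The lines were scaled apart and differ in kit, so similar CPM need not mean similar RNA levels.

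ZNF682 (chr19:19997058-20039505, minus strand, 4 exons and 10 fingers) had 9.63, 9.80 and 9.63 CPM in SUDHL6 parental and 4.10, 4.23 and 3.17 CPM in SUDHL6 resistant libraries, a log2 fold change of -1.33 ± 0.12 (SE, edgeR adjusted p = 1.51e-06). In SUDHL16 it had 2.26, 15.5 and 1.24 CPM against 0.00, 0.05 and 0.00 CPM (edgeR adjusted p = 0.0219, or 0.0129 without CE-26). The 61 counts in CE-25 and CE-27 against 1 in the resistant libraries give a ratio of 106 (exact 95% interval 18.4 to 4266).

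ZNF43 (chr19:21804946-21852125, minus strand, 4 exons and 19 fingers) moved in opposite directions. In SUDHL6 it rose from 1.76, 1.39 and 1.87 CPM to 5.34, 4.36 and 4.60 CPM, a log2 fold change of 1.5 ± 0.15 (SE, edgeR adjusted p = 7.77e-06). In SUDHL16 it had 15.8, 55.8 and 17.7 CPM in parental libraries and 0.00, 0.09 and 0.00 CPM in resistant ones (edgeR adjusted p = 0.00152, or 0.000272 without CE-26). The 571 counts in CE-25 and CE-27 against 2 in the resistant libraries give a ratio of 497 (exact 95% interval 137 to 4118). The difference between the lines was itself past the threshold in the interaction test of all 12 libraries (edgeR adjusted p = 3.02e-05, or 1.5e-06 without CE-26). That test shares 1 estimate of the spread between lines that differ in it, so these p-values may be too small.

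**Figure D4:**
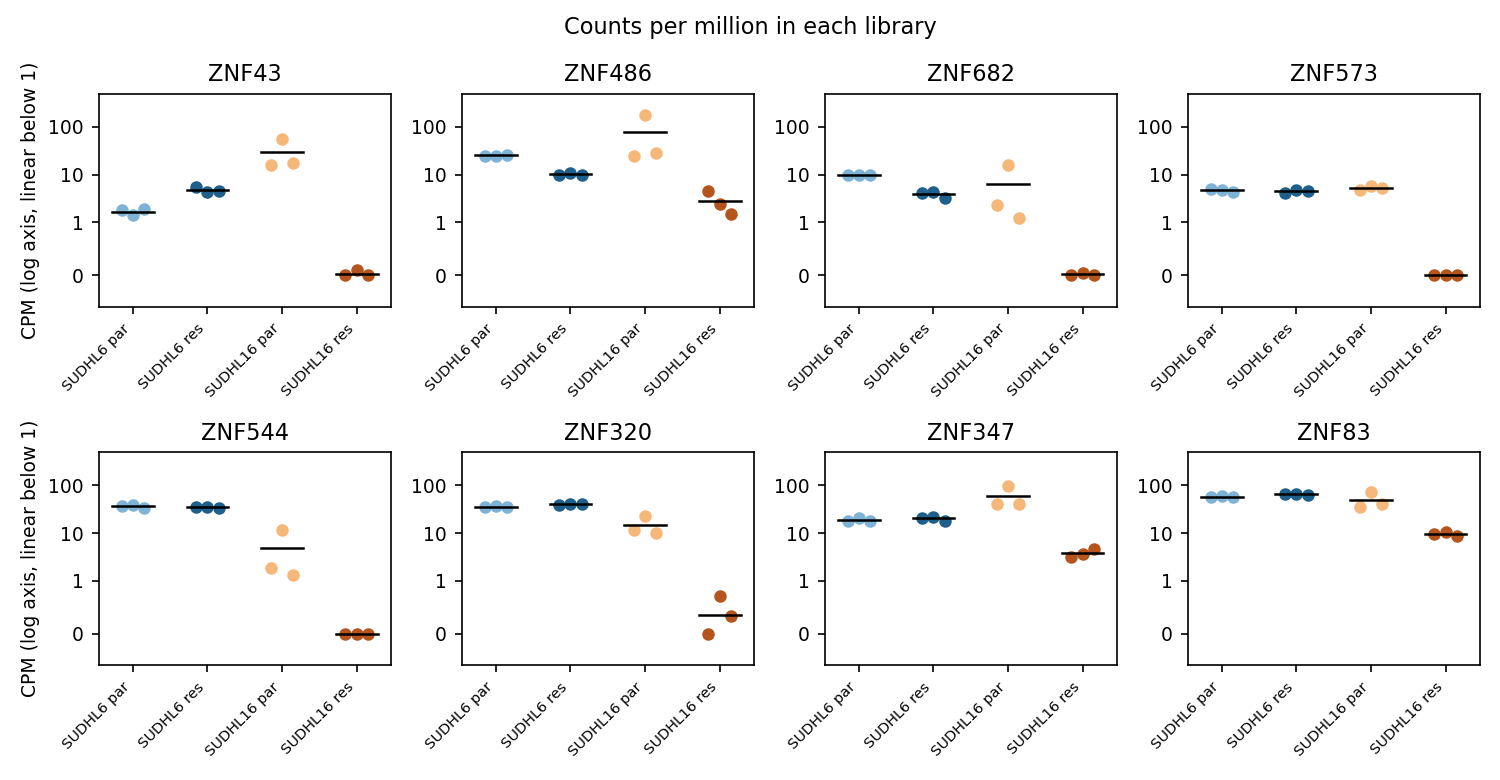
Level in CPM in each library for 8 members (points; 3 per group; par, parental; res, resistant), with the group mean as a line, on a log axis that is linear below 1. ZNF43 rises in SUDHL6 and is near 0 in SUDHL16 resistant cells, ZNF486 and ZNF682 are lower in resistant cells of both lines, and the other 5 genes are lower in SUDHL16 resistant cells with similar levels in both SUDHL6 groups.

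Over the whole family the change was compared between the lines. In the interaction test, 42 of 207 tested members changed toward lower levels in SUDHL16 relative to SUDHL6 and 1 toward higher, against 2.81% and 4.34% of all 19621 genes tested. All 42 were also called without CE-26, when there were 57 and 4, against 5.45% and 7.93%. Of the 42, 30 had a positive change in SUDHL6 and a negative one in SUDHL16. These 42 were called for a lower change in SUDHL16, and no such count over all genes is given here. Of all tested members, 125 of 190 were positive in SUDHL6 and 152 of 185 negative in SUDHL16. Such a pair of signs thus need not mean that the changes of a gene in the 2 lines are linked. The single gene with a higher change in SUDHL16 was ZNF610, at 0 in all SUDHL16 parental libraries and at 0.33, 0.19 and 0.77 CPM in the resistant ones. All 9 genes raised in SUDHL6 had a negative log2 fold change in SUDHL16, with and without CE-26, as had 82.2% and 73.1% of all tested members. For ZNF329, which was raised in SUDHL6, the SUDHL16 values were 24.5, 67.8 and 12.8 CPM in parental and 9.44, 5.74 and 6.21 CPM in resistant libraries, and the difference between the lines was -3.40 on the log2 scale (edgeR adjusted p = 0.00939), or -2.66 without CE-26 (adjusted p = 0.00265). Kit and sequencer differ between the lines as well, and their part in the difference was not tested. The interaction test shares 1 estimate of the spread, although the biological coefficient of variation was 0.47 in SUDHL16 and 0.05 in SUDHL6. In the same fit, the raised and lowered calls of all genes in SUDHL16 went from 503 and 330 to 1590 and 1265. The counts of differences between the lines may thus be too high.

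**Figure D5:**
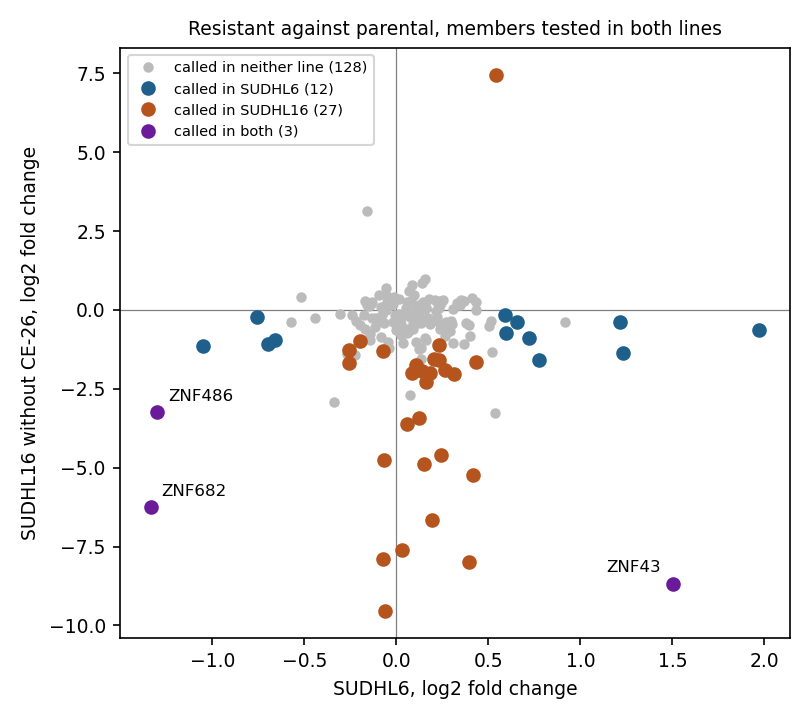
Fitted log2 fold change of the 170 members tested in both lines, SUDHL6 (horizontal) against SUDHL16 without CE-26 (vertical), coloured by the line in which a gene was called. Of these, 80 are positive in SUDHL6 and negative in SUDHL16, 27 were called in SUDHL16 alone, 12 in SUDHL6 alone and 3 in both. Of the members tested in each line, 125 of 190 are positive in SUDHL6 and 136 of 186 negative in SUDHL16 without CE-26.

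The only member raised in SUDHL16, and only without CE-26, was ZNF575, on the long arm, which is named because it was the sole such gene. It had 0 counts in CE-25 and CE-27, 2.07 CPM in CE-26 and 1.61, 0.94 and 0.94 CPM in the resistant libraries, so the groups overlapped once CE-26 was included.

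Lowered genes in SUDHL16 were compared by what the choice of members had not used. Without CE-26, 27 of 131 tested genes with the KRAB motif were lowered and 9 of 55 without it, with medians of -0.45 and -0.33. By number of fingers, 4 of 49 tested genes with up to 9 fingers were lowered, 16 of 82 with 10 to 14, and 16 of 55 with 15 or more. With all libraries the finger classes had 3 of 49, 11 of 81 and 11 of 55. Genes with many fingers also have longer coding sequences, and the part of length was not tested. Genes that overlap no other gene had 9 of 48 lowered without CE-26, and those that overlap one had 27 of 138. Promoters of the 24 genes lowered with all libraries that have one listed held a median of 19.5 CG dinucleotides, against 21 in the 144 tested genes that were not lowered.

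The protein partners through which KRAB zinc fingers silence chromatin were examined next. Of 33 listed corepressor, histone H3 lysine 9 methyltransferase, HP1 and DNA methylation genes, all were tested in both lines. In SUDHL6, 1 was raised and 0 were lowered, and in SUDHL16 1 was raised and 1 was lowered, with and without CE-26. Among all genes tested, 4.31% were raised and 4.65% lowered in SUDHL6, and 3.2% and 2.1% in SUDHL16, so the list's counts were near the background. The corepressor TRIM28, itself on chromosome 19, had log2 fold changes of -0.08 in SUDHL6 and -0.11 in SUDHL16, and the methyltransferase SETDB1 had 0.19 and 0.12. Leaving out CE-26 gave -0.24 and 0.07 in SUDHL16, and none of these values was past the 1.5-fold limit. The raised gene was the same in both lines: DNMT3B, a de novo DNA methyltransferase. In SUDHL6 it had 11.3, 11.6 and 11.6 CPM in parental and 17.8, 18.3 and 18.8 CPM in resistant libraries, a log2 fold change of 0.67 ± 0.06 (SE, edgeR adjusted p = 3.21e-06). This SUDHL6 change lay just past the 1.5-fold limit. A single fit of all 12 libraries kept 1 of the 17 SUDHL6 calls among the members, so a SUDHL6 call this near the limit is less certain. In SUDHL16 it had 3.03, 0.00 and 3.35 CPM in CE-25, CE-26 and CE-27 and 29.9, 28.7 and 25.6 CPM in resistant libraries, a log2 fold change of 3.52 ± 0.67 (SE, edgeR adjusted p = 0.0212), or 3.15 ± 0.29 without CE-26 (adjusted p = 0.00045). EHMT1, a histone H3 lysine 9 methyltransferase, was lowered in SUDHL16, from 85.8, 84.0 and 95.5 CPM to 51.4, 37.2 and 46.9 CPM, a log2 fold change of -0.97 ± 0.22 (SE, edgeR adjusted p = 0.0423), or -0.99 ± 0.22 without CE-26. Whether either gene has a part in the levels of the zinc finger genes was not tested.

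Genes derived from endogenous retroviruses, a class of sequence that KRAB zinc finger proteins repress, were in part too low to test, and more so in SUDHL16. Of 10 listed, 6 were tested in SUDHL6 and 3 in SUDHL16. The envelope gene ERVV-1, on chromosome 19, was lowered in SUDHL6, from 0.70, 0.94 and 0.79 CPM to 0.27, 0.07 and 0.25 CPM (edgeR adjusted p = 0.00162). It was the only 1 of the 6 called in that line, where 4.65% of all genes tested were lowered. None of the listed genes was raised in either line. The 3 tested in SUDHL16 were not called, with a median log2 fold change of -0.23, or -0.09 without CE-26. Transposable elements themselves were not counted in these data.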

How the data were processed

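RNA of 12 libraries from SUDHL6 and SUDHL16 parental and venetoclax-resistant cells was analysed. Per the labels, the authors trimmed reads with Trim Galore, aligned them to GRCh38 with HISAT2 and used StringTie, and they deposited whole-number counts per gene without normalization. The counter, its annotation and its strand setting are not given in the sources used here. Of 60675 identifiers, 56558 were found in GENCODE release 44, which gave symbols and positions.

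Each line was fitted alone with edgeR 4.0.16 (R 4.3.3; filterByExpr, TMM, two-sided quasi-likelihood test, Benjamini-Hochberg adjustment over all genes tested), and the difference between lines as an interaction over all 12 libraries. CPM were on TMM-scaled totals, and TPM on the exon length of annotated genes. The standard error was the absolute log2 fold change over the square root of the quasi-likelihood F. The fits were also run on simulated counts with known changes, drawn from the mean of each gene over the libraries and the fitted spread. Those counts did not carry the unusual make-up of CE-26, and no conclusion is drawn from them here. The alternatives were DESeq2 1.42.0, limma 3.58.1 voom with sample weights, other scalings, filters and gene sets, glmTreat, a single fit, and each library left out.

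The members and gene lists were chosen with earlier results of these data known. Genes were named by a fixed rule: per line, the 8 most raised and 8 most lowered called members without overlap and with a mean of at least 1 CPM in a group, those called in both lines, the 8 largest differences between lines, the 6 largest calls in the cluster, members at up to 3 counts in each library of a group, the 3 highest by TPM, TRIM28, SETDB1 and called list genes. ZNF91, ZNF93, ZNF83, ZNF347, ZNF320, ZNF439, ZNF44, ZNF69, ZNF709, ZNF441, ZNF440, ZNF799, ZNF571, ZNF610, ZNF570 and ZNF575 were chosen after their values were seen. Tables were handled in Python 3.11.15 with pandas 2.3.3 and numpy 2.4.6, and plots drawn with matplotlib 3.10.9.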

Additional observations from a re-analysis of the deposited data

Results flagged for a closer look

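The named members below had a different change in SUDHL6 and SUDHL16 in the interaction test (edgeR, adjusted p under 0.05 over all 19621 genes tested), given as the SUDHL16 minus the SUDHL6 log2 fold change. Among genes at or near 0 in SUDHL16 resistant cells, the difference was -10.97 for ZNF43, -9.86 for ZNF573, -9.51 for ZNF563, -9.28 for ZNF544, -8.80 for ZNF540, -8.68 for ZNF528, -7.26 for ZNF665, -6.57 for ZNF682 and -5.95 for ZNF878. The size of these values depends on the small count that edgeR adds to a group at 0. The test shares 1 estimate of the spread between the lines, which differ in it. ZNF878 was too low to be tested within SUDHL16, at 0.72, 3.79 and 0.25 CPM in parental and 0.00, 0.05 and 0.00 CPM in resistant libraries.

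ZNF470 had a difference of -9.17, with 0 counts in the SUDHL6 parental libraries, 0.17, 0.05 and 0.36 CPM in the SUDHL6 resistant ones, and a decrease in SUDHL16 from 7.72, 13.4 and 5.4 CPM to 0.54, 0.56 and 0.81 CPM. ZNF486 was lowered in both lines and differed by -3.35. ZNF329, ZNF773, ZNF134 and ZNF792 were raised in SUDHL6 and differed by -3.40, -2.05, -1.51 and -1.39. All of these differences were negative.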

How the results depend on the processing

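No paired analysis was possible because the labels give no replicate numbers. No member called within a line changed sign under any alternative run. In SUDHL16 the 25 lowered members became 73 in a single fit of all 12 libraries, 60 with DESeq2, 38 with protein-coding genes only and 56 with voom, and 5 to 36 with a library left out. Over all genes tested, the 330 lowered became 1265, 840, 385 and 971 in that order, and 116 to 541 with a library left out. The 0 raised members became 2 in the single fit and 3 with voom, and 0 to 1 with a library left out. Over all genes, the 503 raised became 1590 in the single fit and 1677 with voom, so calls rose outside the family as well. The 3 members lowered in the cluster became 8 in the single fit, 8 with DESeq2, 6 with voom, 5 with library totals, 5 without a filter and 5 with protein-coding genes only, and 1 to 5 with a library left out. With voom, the median log2 fold changes were -0.48 for all members, -0.28 for the cluster and -0.51 elsewhere. With a library left out they were -1.13 to -0.40, -1.18 to -0.23 and -1.13 to -0.43. Library totals and upper-quartile scaling moved the SUDHL16 median of all genes to 0.11 and -0.11, with member medians of -0.63 and -1.02, and without a filter the median of all genes was -1.18 and that of the members -1.06, so the members then did not stand below it. Without CE-26, the 1 raised member became 3 with DESeq2, while the raised calls over all genes went from 1095 to 1679. Taking the parental mean without CE-26, an alternative chosen after seeing the data, left 9 of the 36 members near 0.

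In SUDHL6 the single fit, in which both lines share 1 estimate of the spread, left 0 of 8 lowered and 1 of 9 raised, and 0 and 0 in the cluster. glmTreat left 5 and 3. Over all genes tested, the 775 lowered and 718 raised became 81 and 59 in the single fit and 342 and 246 with glmTreat. Upper-quartile scaling gave medians of 0.12 overall and 0.14 outside the cluster, and leaving out a library 0.079 to 0.12 and 0.089 to 0.13. The 1 higher difference in SUDHL16 became 0 without a filter and 0 to 4 with a library left out.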
